A study of Homo sapiens with 16 samples.

Results

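The enzymes that burn fatty acids were followed in HUH6, an established human hepatoblastoma (childhood liver tumour) cell line, through 29 genes: those listed for mitochondrial and peroxisomal fatty acid oxidation, ketone body formation and peroxisome growth. They were picked by gene symbol (GENCODE 29) from the 58735 genes of the deposited raw count table. The rule itself uses no measured value, but the list was made with earlier results of these data known. Of the 29, 28 had enough counts to be tested and 1, ACADL, did not. The genes fall into 8 roles, which order the results. They are the carnitine shuttle (CPT1A, SLC25A20 and CPT2), the acyl-CoA dehydrogenases (ACADVL, ACADL, ACADM, ACADS and ACADSB), and the hydration to thiolysis steps (HADHA, HADHB, ECHS1, HADH and ACAA2). The auxiliary double bond enzymes are ECI1, ECI2 and DECR1, the electron transfer genes are ETFA, ETFB and ETFDH, and the ketone body gene is BDH1. The peroxisomal genes are ACOX2, ACOX3, EHHADH, HSD17B4, ACAA1, CROT and PEX11A, and the acyl-CoA thioesterases are ACOT1 and ACOT2.

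Long-chain fatty acids enter mitochondria as carnitine esters and are then shortened in repeated rounds of dehydrogenation, hydration, a further dehydrogenation and thiolysis, which yield acetyl-CoA and electrons for the respiratory chain. Peroxisomes carry a related set of enzymes that shortens very long and branched chains, including bile acid precursors, and starts with an oxidase that hands electrons straight to oxygen. In liver, surplus acetyl-CoA is made into ketone bodies, and PPARα is a well known activator of many of these genes.

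Total RNA was sequenced from cells kept for 48 h in 4 groups. They received the solvent DMSO or 100 µM SLC-0111 (also called U-104), which blocks the carbonic anhydrases CAIX and CAXII, and were held either at normoxia or at an oxygen pressure of 1% (hypoxia). All groups share the cell line and the culture medium, and the labels name no genetic change. Each group has 4 libraries. The labels name them technical replicates, and p-values therefore measure only the spread between these libraries and not that between separate cultures. In 2 libraries, 1 of normoxia SLC-0111 and 1 of hypoxia DMSO, the replicate number in the table conflicts with the labels, and these are called unnumbered.

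Hypoxia DMSO replicate 3 had the fewest counts, 3.30 M (M is 1000000), the deepest library had 49.2 M, and the second lowest was 18.3 M. Hypoxia DMSO replicate 3 stood alone on the second principal component, hypoxia DMSO replicate 1 lay nearest to normoxia among the hypoxic libraries on the first, and normoxia SLC-0111 replicate 4 had the lowest share of protein-coding counts (80.6%). The share of counts from the mitochondrial genome moved with the groups, from 8.48% to 9.33% with DMSO and 8.71% to 15.3% with SLC-0111 in normoxia, and from 5.73% to 7.06% and 6.41% to 8.91% in hypoxia, and its part in the results was not tested. Of 13 hepatocyte and hepatoblast markers 12 were at 1 CPM or more in every group, and DLK1 was near 0. CPM is counts per 1000000 counts of the TMM-scaled library. Of the markers of other cell types, KDR, PTPRC, CD68, HBB, THY1, DCN and LUM were all under 0.1 CPM on average in each group. Of the 5 fibroblast and stellate markers, 2 averaged 1 CPM or more in every group. Of the 4 endothelial markers, 1 did so in every group but hypoxia SLC-0111, where 2 did. Of the 5 blood markers, 0 did so in normoxia DMSO, 2 in hypoxia DMSO and 1 in each SLC-0111 group. PECAM1 averaged 53.6 to 58.2 CPM. The summed level of the 5 fibroblast and stellate markers, nearly all of it PDGFRB and ACTA2, moved with the groups. In normoxia it ran from 39.7 to 43.1 CPM with DMSO and from 31.5 to 35.0 with SLC-0111, in hypoxia from 63.7 to 68.4 and from 48.4 to 55.4, and its part in the results was not tested. The 4 endothelial markers summed to between 50.4 and 63.3 CPM and the 5 blood markers to between 1.04 and 5.36 CPM over all libraries. In such bulk RNA, fewer cells of a type and less RNA per cell cannot be told apart.

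Levels per exon length separated the members far more than any treatment did. On the RPKM scale (CPM per 1000 bases of exon), ECHS1, the short-chain enoyl-CoA hydratase, was the highest member in normoxia DMSO at 107 ± 3.99 (SD, n = 4). It was followed by HSD17B4 (40.7 ± 0.887), the peroxisomal D-bifunctional protein, and by HADHA (37.6 ± 1.54), the trifunctional protein's α subunit. In that group 14 of the 29 members reached 10 RPKM and 25 reached 1 RPKM. The 4 below 1 RPKM were ECI2, BDH1, CPT1A and ACADL. CPT1A, the liver form of the enzyme that commits long-chain acyl groups to mitochondria, was at 0.0285 ± 0.0202 RPKM. CPT1A was thus the least abundant tested member by this measure. ACADL, the long-chain acyl-CoA dehydrogenase, had 0 counts in 10 of the 16 libraries and was below the limit that a count of 0 allows (3 counts, 0.062 to 0.893 CPM depending on the library) in all of them. Its change with compound or oxygen was not detectable at this depth.

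**Figure D1:**
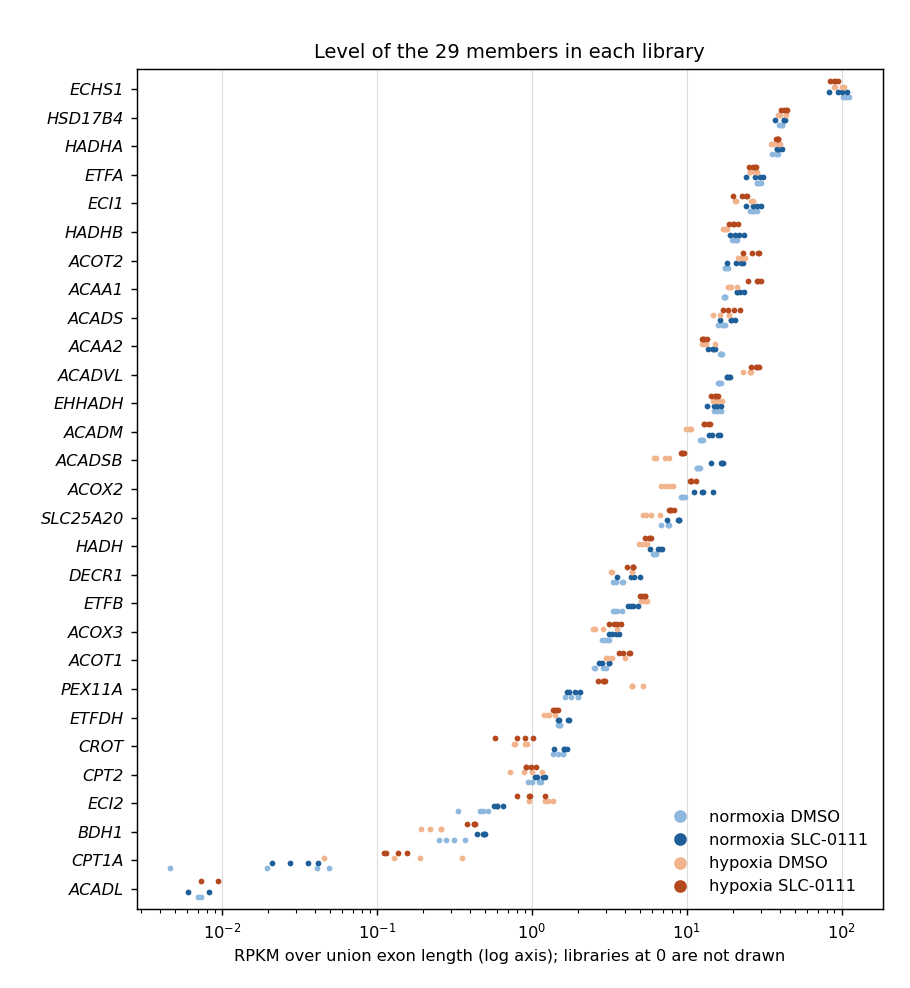
Level of each of the 29 members in every library, as RPKM over the union exon length on a log axis. Points are libraries, coloured by group, and genes are sorted by their mean in normoxia DMSO, from ECHS1 at the top to ACADL at the bottom; libraries at 0 are not drawn.

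SLC-0111 raised more members than it lowered in either oxygen condition, by small amounts. Since the list was made with earlier results of these data known, the shares below describe these members and are not a test of the pathway. In normoxia it raised 9 of the 28 tested members (32.1%) against 12.4% of all 18385 tested genes, and lowered 1 (ACAA2) against 11.2% (23.6% in either direction), by edgeR's quasi-likelihood test at an adjusted p under 0.05. The median log2 fold change of the 28 was 0.14, and that of all tested genes was 0.02. In hypoxia it raised 10 (35.7%) against 9.14% of all tested genes and lowered 1 (PEX11A) against 7.11% (16.3% in either direction), with medians of 0.11 for the members and -0.01 for all genes. The largest rise was that of BDH1, and no called member changed by 2-fold or more. ACADVL, ACADM, ACADSB, BDH1, ACOX2, ACAA1 and ACOT2 were called higher in both conditions. Libraries of the groups did not overlap for 9 members that were higher and 1 that was lower in normoxia (15.1% and 14.5% of all tested genes), and for 8 higher and 1 lower in hypoxia (9.74% and 7.30%). Scaling to the library size alone, without TMM, moved the members raised to 6 in normoxia and 6 in hypoxia, and without hypoxia SLC-0111 replicate 3 the 10 raised in hypoxia were 6. It also moved the split over all genes, from 2271 higher and 2067 lower to 1396 and 3141 in normoxia, and from 1681 and 1307 to 959 and 1941 in hypoxia.

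Hypoxia raised some members and lowered others, as it did genes at large. With DMSO it raised 7 of 28 members, against 25.0% of all tested genes, and lowered 10 (35.7%), against 24.8%; over both directions 49.8% of all tested genes were called. With SLC-0111 it raised 8 (28.6%), against 23.9%, and lowered 7 (25.0%), against 24.3%, with 48.2% of all tested genes called in either direction. The shares of members raised with either treatment and lowered with SLC-0111 are near those of all genes. The medians were -0.07 with DMSO and -0.05 with SLC-0111, beside 0.00 and -0.03 over all tested genes. With both treatments CPT1A, ACADVL, ECI2, ETFB, ACAA1, PEX11A and ACOT2 were called higher and ACADM, ACADSB, HADH, ACAA2, ECI1, ACOX2 and CROT lower. Changes of 2-fold or more were 3 with DMSO (CPT1A, ECI2 and PEX11A) and 1 with SLC-0111 (CPT1A). The groups did not overlap for 7 members higher and 10 lower with DMSO (20.7% and 21.9% of all tested genes), and for 8 higher and 5 lower with SLC-0111 (22.3% and 21.4%). These comparisons share samples with those of the compound: the 6 members that were lower in hypoxia with DMSO and higher with SLC-0111 in hypoxia (SLC25A20, ACADM, ACADSB, HADHB, BDH1 and ACOX2) are measured against the same hypoxia DMSO libraries in both.

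**Figure D2:**
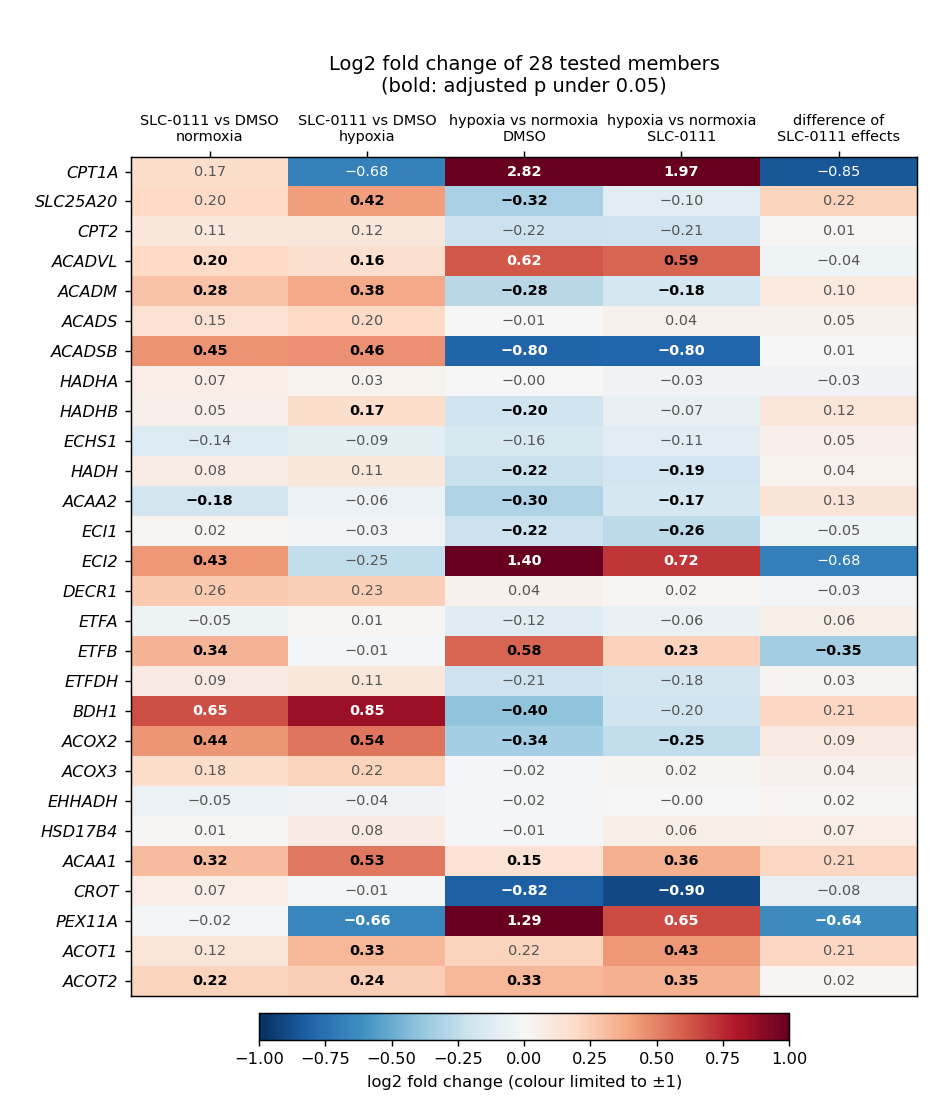
Fitted log2 fold change of the 28 tested members (rows) in the 5 contrasts (columns); red is higher, blue is lower, with the colour limited to ±1, and bold values have an adjusted p under 0.05. The SLC-0111 columns hold 9 and 10 called rises with 1 called fall each, the hypoxia columns hold calls in both directions, and the last column holds 2 calls, PEX11A and ETFB.

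Since 7 members rose in hypoxia with both treatments, the 250 bases before their RefSeq start sites were read for ACGTG, the core of the site bound by hypoxia-inducible factors, on both strands. RefSeq windows (build GRCh38.p14) were matched for 23 of the 29 members and for 6 of these 7, all but ACAA1. ACGTG lay in a window of 4 of the 23 members (17.4%: ACADL, ACADVL, ACOT2 and ETFB), while 18.5% of all 35116 windows hold it. The first share counts genes with ACGTG in any of their windows and the second counts single windows, so they are unlike measures. Counted by window, 4 of the members' 30 windows hold it. The 6 windows follow 5′ to 3′ on the gene's strand with the motif in capitals, and HADHA is set beside them since its start lies 307 bases from that of HADHB on the other strand. Where a gene has several windows, the one with the motif is shown, or otherwise the one nearest to the GENCODE start. The windows are chr15:89690755-89691004 (minus strand) for PEX11A, chr11:68844278-68844527 (minus strand) for CPT1A and chr6:4135576-4135825 (minus strand) for ECI2. They are chr17:7219688-7219937 (plus strand) for ACADVL, chr19:51354843-51355092 (minus strand) for ETFB, chr14:73568963-73569212 (plus strand) for ACOT2 and chr2:26244633-26244882 (minus strand) for HADHA.
PEX11A: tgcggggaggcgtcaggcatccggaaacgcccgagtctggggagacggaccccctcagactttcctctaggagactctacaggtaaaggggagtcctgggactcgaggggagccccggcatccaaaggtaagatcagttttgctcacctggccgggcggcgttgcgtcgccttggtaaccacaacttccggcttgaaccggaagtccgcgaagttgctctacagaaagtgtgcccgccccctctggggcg
CPT1A: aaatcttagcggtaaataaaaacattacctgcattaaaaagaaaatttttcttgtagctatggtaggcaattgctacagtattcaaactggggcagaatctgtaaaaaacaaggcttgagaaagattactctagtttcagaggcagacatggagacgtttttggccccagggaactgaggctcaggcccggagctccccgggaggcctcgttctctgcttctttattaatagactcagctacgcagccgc
ECI2: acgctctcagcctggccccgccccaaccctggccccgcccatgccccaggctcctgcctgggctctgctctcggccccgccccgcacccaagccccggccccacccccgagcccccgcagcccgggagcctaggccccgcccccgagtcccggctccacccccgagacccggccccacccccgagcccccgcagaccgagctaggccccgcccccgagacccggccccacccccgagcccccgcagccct
ACADVL: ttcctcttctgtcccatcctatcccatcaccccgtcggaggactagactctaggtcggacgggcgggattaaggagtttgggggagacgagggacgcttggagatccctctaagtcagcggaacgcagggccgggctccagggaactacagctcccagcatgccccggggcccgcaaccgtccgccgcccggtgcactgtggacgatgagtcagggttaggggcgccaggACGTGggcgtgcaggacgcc
ETFB: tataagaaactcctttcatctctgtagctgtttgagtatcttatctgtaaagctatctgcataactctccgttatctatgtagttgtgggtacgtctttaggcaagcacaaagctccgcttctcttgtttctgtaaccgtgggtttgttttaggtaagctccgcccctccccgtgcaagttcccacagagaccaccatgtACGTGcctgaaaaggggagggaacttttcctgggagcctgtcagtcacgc
ACOT2: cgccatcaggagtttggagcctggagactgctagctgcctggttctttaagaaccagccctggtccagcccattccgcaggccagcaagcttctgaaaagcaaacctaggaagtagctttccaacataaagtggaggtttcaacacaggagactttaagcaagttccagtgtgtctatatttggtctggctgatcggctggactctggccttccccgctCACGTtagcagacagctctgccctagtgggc
HADHA: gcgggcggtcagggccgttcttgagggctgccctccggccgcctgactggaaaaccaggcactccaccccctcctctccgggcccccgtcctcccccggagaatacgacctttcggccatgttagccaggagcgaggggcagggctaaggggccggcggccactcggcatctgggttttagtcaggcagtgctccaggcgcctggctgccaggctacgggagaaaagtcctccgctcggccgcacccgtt

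The motif began 20 bases before the RefSeq start site of the printed window in ACADVL and 50 bases before that in ETFB. In ACOT2 it was read on the opposite strand 31 bases before the RefSeq start, where the letters are CACGT. These printed windows of ACADVL, ETFB and ACOT2 lie inside the genes, downstream of the GENCODE starts (7217125, 51366418 and 73567620). Each of these genes has 2 windows, and the one with the motif was printed. Which start site these cells use was not tested. PEX11A, CPT1A and ECI2, which had the largest rises in hypoxia, have no ACGTG in these letters. The nuclear receptor site AGGTCA, its direct repeat with 1 base between the copies, read by PPARα, and the element TCAAGGTCA read by estrogen-related receptors, which contains AGGTCA, were found in 0 of the 23 members' windows, with 12.1%, 0.0171% and 0.319% of all windows holding them. A match or its absence in these windows describes the letters only.

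In the carnitine shuttle, hypoxia raised the very low CPT1A and lowered the translocase SLC25A20 with DMSO. CPT1A (ENSG00000110090, chr11:68754620-68844410, minus strand, on GRCh38 by GENCODE 29 as for all genes) was at 0.128, 0.269, 0.321 and 0.0306 CPM in normoxia DMSO and 0.276, 0.18, 0.237 and 0.138 CPM in normoxia SLC-0111, in the order of replicates 1 to 4 with an unnumbered library last. In hypoxia the libraries of CPT1A were at 0.848, 1.25, 0.298 and 2.34 CPM with DMSO and 1.03, 0.898, 0.757 and 0.728 CPM with SLC-0111. The hypoxia DMSO libraries spread widely, and the lowest of them, the shallow replicate 3 with 1 count, overlapped normoxia, while all SLC-0111 libraries in hypoxia were above all in normoxia. The log2 fold change was 2.82 ± 0.43 (SE) with DMSO (adjusted p = 8.28e-06) and 1.97 ± 0.43 with SLC-0111 (adjusted p = 0.00058), by edgeR's quasi-likelihood test. These rest on group totals of 21 and 106 counts with DMSO, a ratio of CPM of 7.25 (95% interval 4.51 to 12.2, counting error only), and of 23 and 104 counts with SLC-0111, a ratio of 3.91 (2.47 to 6.44). Within hypoxia, SLC-0111 against DMSO gave -0.68 ± 0.34 (adjusted p = 0.201), which did not pass; without the unnumbered hypoxia DMSO library, the highest of its group, the value was -0.23 (adjusted p = 0.743).

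SLC25A20, which carries acylcarnitines across the inner mitochondrial membrane, averaged 14.7 ± 0.804 CPM with DMSO and 16.9 ± 1.36 with SLC-0111 in normoxia, and 11.6 ± 1.27 and 15.7 ± 0.507 in hypoxia (SD, n = 4). It fell in hypoxia with DMSO, by 0.32 ± 0.08 on the log2 scale (adjusted p = 0.00181), and rose with SLC-0111 in hypoxia, by 0.42 ± 0.08 (adjusted p = 0.000736). CPT2, the inner membrane enzyme that returns the acyl group to CoA, averaged 11.0 ± 0.997, 11.9 ± 0.840, 9.91 ± 1.94 and 10.2 ± 0.738 CPM in the same order. No contrast of CPT2 passed, and the smallest adjusted p was 0.076, in hypoxia against normoxia with SLC-0111. The other genes of the CPT1 step were low as well. CPT1B, the muscle form, averaged 0.417 ± 0.176 CPM and CPT1C, the brain form, 0.470 ± 0.255 CPM in normoxia DMSO. Both means were above that of CPT1A in this group (0.187 ± 0.132 CPM). These 2 genes are given as the other forms of the step and were picked after their values were seen.

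The acyl-CoA dehydrogenases differed among themselves in hypoxia, where the enzyme for the longest chains rose and those for medium and branched chains fell. ACADVL (ENSG00000072778, chr17:7217125-7225273, plus strand), the very-long-chain enzyme, was at 81.0, 79.3, 78.5 and 77.3 CPM in normoxia DMSO and 91.7, 89.3, 88.5 and 92.5 CPM in normoxia SLC-0111. In hypoxia ACADVL was at 113, 126, 125 and 125 CPM with DMSO and 138, 142, 137 and 127 CPM with SLC-0111. The groups were stacked in that order without overlap, normoxia below hypoxia and DMSO below SLC-0111. Hypoxia raised it 1.54-fold with DMSO (log2 0.62 ± 0.05, adjusted p = 1.44e-10) and by log2 0.59 ± 0.05 with SLC-0111 (adjusted p = 3.98e-10). SLC-0111 raised it by 0.20 ± 0.05 in normoxia (adjusted p = 0.0036) and by 0.16 ± 0.05 in hypoxia (adjusted p = 0.0242). The last call was lost without hypoxia DMSO replicate 1 and without each of hypoxia SLC-0111 replicates 1, 2 and 3, and its adjusted p reached 0.268 over the alternatives.

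ACADSB (ENSG00000196177, chr10:123008979-123058311, plus strand), which acts on short branched chains from isoleucine, moved in the opposite direction with oxygen. In normoxia ACADSB was at 76.4, 72.8, 75.1 and 72.6 CPM with DMSO and 108, 105, 89.7 and 104 CPM with SLC-0111. In hypoxia ACADSB was at 48.0, 39.6, 45.6 and 38.7 CPM with DMSO and 58.4, 59.8, 58.0 and 57.7 CPM with SLC-0111. All hypoxic libraries lay below all normoxic ones, and within each oxygen condition all SLC-0111 libraries lay above all DMSO libraries. Hypoxia lowered it by 0.80 ± 0.07 on the log2 scale with DMSO (adjusted p = 5.4e-10) and by 0.80 ± 0.06 with SLC-0111 (adjusted p = 2.98e-10). SLC-0111 raised it by 0.45 ± 0.06 in normoxia (adjusted p = 9.54e-06) and 0.46 ± 0.07 in hypoxia (adjusted p = 3.35e-05), and these 4 calls held under every alternative.

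ACADM, the medium-chain enzyme, averaged 59.8 ± 1.1 CPM with DMSO and 72.8 ± 5.33 with SLC-0111 in normoxia, and 49.5 ± 1.53 and 64.2 ± 2.96 in hypoxia. It was raised by SLC-0111 by 0.28 ± 0.05 in normoxia (adjusted p = 0.00032) and by 0.38 ± 0.06 in hypoxia (adjusted p = 3.16e-05). Hypoxia lowered ACADM by 0.28 ± 0.06 on the log2 scale with DMSO (adjusted p = 0.000202) and by 0.18 ± 0.05 with SLC-0111 (adjusted p = 0.00694). ACADS, the short-chain enzyme, averaged between 45.1 ± 1.88 CPM in normoxia DMSO and 51.6 ± 5.63 CPM in hypoxia SLC-0111, and none of its 5 contrasts passed by edgeR's test, the smallest adjusted p being 0.108. Its SLC-0111 contrast in hypoxia passed under 6 of the 28 alternatives, among them those without hypoxia DMSO replicate 1 and without hypoxia SLC-0111 replicate 4, with an adjusted p down to 0.00448.

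**Figure D3:**
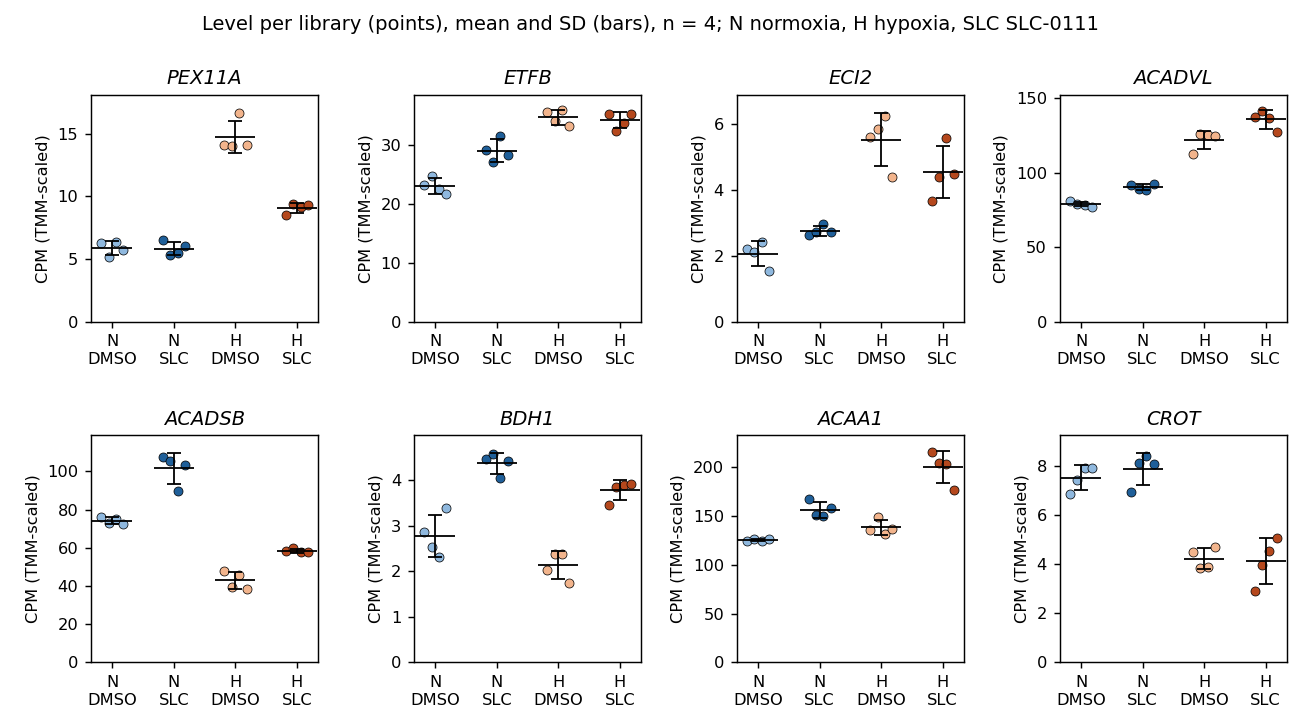
TMM-scaled CPM of 8 members in every library (points) with the mean and SD of each group (bars, n = 4); the vertical axes start at 0. PEX11A and ECI2 are highest in hypoxia DMSO, ACADVL rises from left to right, and ACADSB, BDH1 and ACAA1 are higher with SLC-0111 in both oxygen conditions.

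Among the steps from hydration to thiolysis, the paired subunits of the trifunctional protein did not share calls, and ACAA2 fell. HADHA (ENSG00000084754, chr2:26190635-26244726, minus strand), the subunit with the long-chain hydratase and hydroxyacyl-CoA dehydrogenase, was at 170.5, 167, 166 and 155 CPM in normoxia DMSO and 181, 173, 168 and 168 CPM in normoxia SLC-0111. In hypoxia HADHA was at 177, 159, 170.0 and 154 CPM with DMSO and 171, 169.8, 167 and 166 CPM with SLC-0111. The 4 groups overlapped in every pair. Its log2 fold changes were between -0.03 and 0.07 with adjusted p of 0.343 or more. The 95% interval of hypoxia against normoxia with DMSO ran from -0.10 to 0.09. HADHB, the thiolase subunit, averaged 87.5 ± 2.53 CPM with DMSO and 90.7 ± 8.08 with SLC-0111 in normoxia, and 76.0 ± 1.77 and 86.2 ± 4.99 in hypoxia. It fell in hypoxia with DMSO by 0.20 ± 0.06 on the log2 scale (adjusted p = 0.00641) and was called higher with SLC-0111 in hypoxia at 0.17 ± 0.06 (adjusted p = 0.0414). That second call was lost under 18 of 28 alternatives, with an adjusted p up to 0.307. They included the fits without normoxia DMSO replicate 1, 2 or 3, normoxia SLC-0111 replicate 3 or the unnumbered one, hypoxia DMSO replicate 2, 3 or the unnumbered one, and hypoxia SLC-0111 replicate 1, 2 or 3. Whether the 2 subunits differ in response was not tested.

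ACAA2 (ENSG00000167315, chr18:49782167-49813960, minus strand), the mitochondrial thiolase, was at 84.4, 84.6, 85.9 and 83.3 CPM in normoxia DMSO and 77.6, 74.9, 69.9 and 75.3 CPM in normoxia SLC-0111. In hypoxia ACAA2 was at 76.8, 66.0, 67.3 and 63.9 CPM with DMSO and 66.1, 65.1, 68.4 and 64.1 CPM with SLC-0111. Normoxia DMSO was above the other 3 groups in every library, and the 2 hypoxic groups overlapped. Its fall with SLC-0111 in normoxia was 0.18 ± 0.05 on the log2 scale (adjusted p = 0.012), the only member lowered there, and was lost when the share of protein-coding counts was a covariate and without hypoxia DMSO replicate 3 together with normoxia SLC-0111 replicate 4 (adjusted p up to 0.106). Hypoxia lowered it by 0.30 ± 0.05 with DMSO (adjusted p = 6.2e-05) and by 0.17 ± 0.05 with SLC-0111 (adjusted p = 0.00848), the latter with an adjusted p of 0.0538 without hypoxia SLC-0111 replicate 2. A same-strand locus, AC090227.1, covers 7.59% of its exon bases.

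HADH, the short-chain hydroxyacyl-CoA dehydrogenase, fell in hypoxia by 0.22 ± 0.06 on the log2 scale with DMSO (adjusted p = 0.00197) and by 0.19 ± 0.05 with SLC-0111 (adjusted p = 0.0064). Its means were 74.4 ± 1.28 CPM in normoxia DMSO and 63.9 ± 3.43 CPM in hypoxia DMSO. ECHS1 averaged 172 ± 6.45 CPM in normoxia DMSO and 155 ± 12.3 CPM in hypoxia DMSO. It had no call by edgeR's test, the nearest being -0.16 ± 0.07 in hypoxia with DMSO (adjusted p = 0.0518), which passed under 12 of 28 alternatives. They included the fits without normoxia SLC-0111 replicate 1 or 4, hypoxia DMSO replicate 1 or 3, and hypoxia SLC-0111 replicate 1 or 4 (adjusted p down to 3.2e-05).

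The auxiliary enzymes, which move or reduce double bonds so that unsaturated chains can be shortened, held one of the largest rises in hypoxia. ECI2 (ENSG00000198721, chr6:4115689-4135597, minus strand), an enoyl-CoA isomerase of peroxisomes and mitochondria, was at 2.22, 2.11, 2.41 and 1.53 CPM in normoxia DMSO and 2.62, 2.73, 2.98 and 2.72 CPM in normoxia SLC-0111. In hypoxia ECI2 was at 5.61, 5.85, 6.25 and 4.41 CPM with DMSO and 3.66, 4.40, 5.59 and 4.50 CPM with SLC-0111. All hypoxic libraries were above all normoxic ones, and the 2 hypoxic groups overlapped. Hypoxia raised ECI2 2.63-fold with DMSO (log2 1.40 ± 0.15, adjusted p = 6.4e-08) and 1.64-fold with SLC-0111 (log2 0.72 ± 0.14, adjusted p = 0.000213). The rise with SLC-0111 in normoxia, 0.43 ± 0.16 (adjusted p = 0.0486), was lost under 20 of 28 alternatives (adjusted p up to 0.195). They included the fits without normoxia DMSO replicate 1, 2 or 4, without any 1 of the normoxia SLC-0111 libraries, without hypoxia DMSO replicate 2 or 3, and without hypoxia SLC-0111 replicate 2 or 4. C6orf201 on the opposite strand overlaps 27.1% of ECI2's exon bases, and reads of the 2 genes cannot be told apart if the count ignored strand.

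ECI1 (ENSG00000167969, chr16:2239395-2252300, minus strand), the mitochondrial enoyl-CoA isomerase, was at 92.3, 86.6, 86.3 and 83.5 CPM in normoxia DMSO and 97.3, 86.8, 77.8 and 92.1 CPM in normoxia SLC-0111. In hypoxia ECI1 was at 83.8, 66.6, 86.7 and 67.3 CPM with DMSO and 79.0, 73.5, 78.1 and 64.3 CPM with SLC-0111. Hypoxic libraries were mostly lower, with overlap in both pairs. Its fall was 0.22 ± 0.08 on the log2 scale with DMSO (adjusted p = 0.0365) and 0.26 ± 0.08 with SLC-0111 (adjusted p = 0.0107). The call with DMSO was lost without normoxia DMSO replicate 1, 2 or 3, without hypoxia DMSO replicate 2 or the unnumbered one, and without hypoxia SLC-0111 replicate 2, with an adjusted p up to 0.18 over the alternatives. DECR1, the dienoyl-CoA reductase, averaged 12.7 ± 0.880 CPM with DMSO and 15.3 ± 2.15 with SLC-0111 in normoxia, and 13.5 ± 2.33 and 15.5 ± 0.619 in hypoxia. None of its 5 contrasts passed, the smallest adjusted p being 0.0641 for SLC-0111 in normoxia, which passed under 7 of 28 alternatives, among them those without normoxia SLC-0111 replicate 4 and without hypoxia DMSO replicate 1 (adjusted p down to 0.00184).

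Electrons from the dehydrogenases pass to the flavoprotein made of ETFA and ETFB and then through ETFDH to ubiquinone. ETFB (ENSG00000105379, chr19:51345169-51366418, minus strand) was the one of these 3 genes with calls. ETFB was at 23.2, 24.8, 22.6 and 21.7 CPM in normoxia DMSO and 29.2, 27.2, 31.6 and 28.4 CPM in normoxia SLC-0111. In hypoxia ETFB was at 35.6, 34.1, 36.0 and 33.3 CPM with DMSO and 35.3, 32.5, 33.8 and 35.3 CPM with SLC-0111. Normoxia DMSO was lowest and normoxia SLC-0111 next, with no overlap, and the hypoxic groups were highest and overlapped each other. Hypoxia raised ETFB by 0.58 ± 0.06 with DMSO (adjusted p = 2.51e-08) and by 0.23 ± 0.06 with SLC-0111 (adjusted p = 0.00177), and SLC-0111 raised it by 0.34 ± 0.06 in normoxia (adjusted p = 0.000161).

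ETFA, the partner subunit, averaged 147 ± 4.76 CPM in normoxia DMSO and 135 ± 7.14 CPM in hypoxia DMSO, against 23.1 ± 1.30 and 34.7 ± 1.28 CPM for ETFB. Per exon length that was 29.1 ± 0.945 RPKM for ETFA and 3.54 ± 0.199 RPKM for ETFB in normoxia DMSO. The union exon lengths used for this are 5031 bases for ETFA and 6526 bases for ETFB. A same-strand locus, AC008750.8, covers 5.16% of ETFB's exon bases. No contrast of ETFA passed, the smallest adjusted p being 0.101. ETFDH averaged 6.78 ± 0.0978 and 5.79 ± 0.396 CPM in normoxia and hypoxia with DMSO, and 7.24 ± 0.638 and 6.35 ± 0.218 CPM with SLC-0111. Its hypoxic libraries were below the normoxic ones with either treatment, but the falls did not pass (-0.21, adjusted p = 0.0607, and -0.18, adjusted p = 0.0742). PPID on the opposite strand overlaps 10.9% of its exon bases.

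BDH1 (ENSG00000161267, chr3:197509783-197573323, minus strand), which interconverts the ketone bodies acetoacetate and hydroxybutyrate, had the largest rise with SLC-0111 among the members. In normoxia BDH1 was at 2.86, 2.53, 2.31 and 3.39 CPM with DMSO and 4.46, 4.57, 4.04 and 4.42 CPM with SLC-0111. In hypoxia BDH1 was at 2.02, 2.38, 2.38 and 1.75 CPM with DMSO and 3.46, 3.85, 3.89 and 3.91 CPM with SLC-0111. SLC-0111 libraries were above DMSO libraries in both oxygen conditions with no overlap. The rise was 1.57-fold in normoxia (log2 0.65 ± 0.13, adjusted p = 0.000512) and 1.81-fold in hypoxia (log2 0.85 ± 0.14, adjusted p = 0.000174), and both calls held under every alternative. Hypoxia lowered BDH1 with DMSO by 0.40 ± 0.15 on the log2 scale (adjusted p = 0.0273). That call was lost under 9 of 28 alternatives, among them those without normoxia DMSO replicate 1 or 4 and without hypoxia DMSO replicate 1 or the unnumbered one, with an adjusted p up to 0.204.

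The peroxisomal enzymes gave 2 further rises with SLC-0111 and a fall of the carnitine transferase in hypoxia. ACAA1 (ENSG00000060971, chr3:38103129-38137242, minus strand), the peroxisomal thiolase, was at 124, 127, 125 and 126 CPM in normoxia DMSO and 167, 151, 149.5 and 158 CPM in normoxia SLC-0111. In hypoxia ACAA1 was at 135, 149, 131 and 137 CPM with DMSO and 216, 205, 203 and 176 CPM with SLC-0111. It was lowest in normoxia DMSO, and each SLC-0111 group was above its DMSO group with no overlap. SLC-0111 raised ACAA1 by 0.32 ± 0.06 in normoxia (adjusted p = 0.000175) and 0.53 ± 0.06 in hypoxia (adjusted p = 5.37e-07). Hypoxia raised it by 0.36 ± 0.06 with SLC-0111 (adjusted p = 1.15e-05). The rise with DMSO was 0.15 ± 0.06 (adjusted p = 0.0362) and was lost under 9 of 28 alternatives, among them those without any 1 of the normoxia DMSO libraries, without the unnumbered normoxia SLC-0111 library and without hypoxia DMSO replicate 2 (adjusted p up to 0.185). DLEC1 on the opposite strand overlaps 19.7% of ACAA1's exon bases.

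ACOX2 (ENSG00000168306, chr3:58505136-58537319, minus strand), the oxidase for branched chains and bile acid precursors, was at 37.5, 36.2, 35.6 and 36.3 CPM in normoxia DMSO and 57.2, 48.7, 43.2 and 49.6 CPM in normoxia SLC-0111. In hypoxia ACOX2 was at 31.7, 27.9, 29.8 and 26.2 CPM with DMSO and 44.1, 40.8, 40.9 and 41.3 CPM with SLC-0111. Hypoxia DMSO was lowest in every library, and SLC-0111 libraries were above DMSO libraries in both conditions. The rise with SLC-0111 was 0.44 ± 0.07 in normoxia (adjusted p = 3.5e-05) and 0.54 ± 0.07 in hypoxia (adjusted p = 1.34e-05). Its fall in hypoxia was 0.34 ± 0.07 on the log2 scale with DMSO (adjusted p = 0.00042) and 0.25 ± 0.07 with SLC-0111 (adjusted p = 0.00376), where the groups overlapped.

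CROT (ENSG00000005469, chr7:87345681-87399795, plus strand), which makes medium-chain carnitine esters for export from peroxisomes, was at 6.86, 7.41, 7.89 and 7.89 CPM in normoxia DMSO and 6.94, 8.09, 8.39 and 8.05 CPM in normoxia SLC-0111. In hypoxia CROT was at 4.48, 3.85, 3.87 and 4.67 CPM with DMSO and 2.89, 3.98, 4.54 and 5.06 CPM with SLC-0111. Every hypoxic library was below every normoxic one, and the compound left the groups overlapping. The fall in hypoxia was 0.82 ± 0.13 on the log2 scale with DMSO (adjusted p = 1.24e-05) and 0.90 ± 0.12 with SLC-0111 (adjusted p = 1.27e-06). The 3 remaining peroxisomal enzymes had no call by edgeR's test. EHHADH and HSD17B4, the L- and D-bifunctional proteins, had log2 fold changes from -0.05 to 0.08 over the 4 single contrasts, and HSD17B4 was the member with the highest CPM (434 ± 9.46 in normoxia DMSO). ACOX3, the oxidase for pristanoyl-CoA, gave 0.18 and 0.22 with SLC-0111 in normoxia and hypoxia (adjusted p = 0.141 and 0.106).

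PEX11A, which elongates and divides peroxisomes, had the larger of the 2 called differences in response to SLC-0111 between the oxygen conditions. PEX11A (ENSG00000166821, chr15:89677764-89690783, minus strand) was at 6.31, 5.18, 6.35 and 5.69 CPM in normoxia DMSO and 6.52, 5.32, 5.49 and 6.03 CPM in normoxia SLC-0111. In hypoxia PEX11A was at 14.1, 14.0, 16.7 and 14.1 CPM with DMSO and 8.52, 9.40, 9.12 and 9.28 CPM with SLC-0111. The normoxic groups overlapped, the hypoxia SLC-0111 libraries were all above them, and the hypoxia DMSO libraries were all above those. Hypoxia raised PEX11A 2.44-fold with DMSO (log2 1.29 ± 0.09, adjusted p = 1.94e-11) and 1.57-fold with SLC-0111 (log2 0.65 ± 0.09, adjusted p = 1.61e-06). SLC-0111 lowered it in hypoxia by 0.66 ± 0.08 on the log2 scale (adjusted p = 7.3e-06), while in normoxia the change was -0.02 ± 0.09 (adjusted p = 0.909).

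The effect of SLC-0111 was tested for a difference between the oxygen conditions as an interaction. It was called lower in hypoxia than in normoxia for 2 of 28 members, against 3.13% of all tested genes (5.99% in either direction). PEX11A had a difference of -0.64 ± 0.12 on the log2 scale (adjusted p = 0.00346) and ETFB one of -0.35 ± 0.08 (adjusted p = 0.0136), the latter with an adjusted p of 0.0539 when genes of low counts were kept. The count of members called in the other direction was 0 by edgeR's quasi-likelihood test, against 2.87% of all tested genes; it was also 0 by DESeq2 and limma-voom, and 1 member had an unadjusted p under 0.05. ECI2 was at -0.68 ± 0.21 (adjusted p = 0.0567) and passed under 5 of 27 alternatives, among them those without the unnumbered hypoxia DMSO library and without hypoxia SLC-0111 replicate 3 (adjusted p down to 0.0177). CPT1A was at -0.85 ± 0.66 (adjusted p = 0.49). For the 7 members raised by the compound in both conditions the differences ran from -0.04 to 0.21, and none passed.

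Of the thioesterases, which free fatty acids from CoA, ACOT2 was called higher in all 4 single contrasts and ACOT1 in 2. ACOT2, the mitochondrial enzyme, averaged 43.1 ± 0.948 CPM with DMSO and 50.4 ± 5.04 with SLC-0111 in normoxia, and 54.3 ± 2.52 and 64.5 ± 6.71 in hypoxia. Hypoxia raised it by 0.33 ± 0.07 with DMSO (adjusted p = 0.000585) and 0.35 ± 0.07 with SLC-0111 (adjusted p = 0.000214). SLC-0111 gave 0.22 ± 0.07 in normoxia (adjusted p = 0.0251) and 0.24 ± 0.07 in hypoxia (adjusted p = 0.022), with overlapping groups. Each of these calls was lost under 6 of 28 alternatives. In normoxia these included the fits without DMSO replicate 3 or 4 and without SLC-0111 replicate 1 or the unnumbered one (adjusted p up to 0.182), and in hypoxia those without DMSO replicate 2 and without SLC-0111 replicate 1 or 3 (up to 0.157).

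ACOT1, the cytosolic enzyme, averaged 4.68 ± 0.414 CPM in normoxia DMSO and 6.88 ± 0.513 CPM in hypoxia SLC-0111. Between the SLC-0111 groups, it was higher in hypoxia than in normoxia by 0.43 ± 0.10 (adjusted p = 0.000664). Between the hypoxic groups, it was higher with SLC-0111 than with DMSO by 0.33 ± 0.10 (adjusted p = 0.0271), a call that was lost under 6 of 28 alternatives, including without hypoxia DMSO replicate 1 or 2 and without hypoxia SLC-0111 replicate 2 or 3 (adjusted p up to 0.09). The 2 genes are near copies: 53.1% of the 50-base stretches of ACOT1's transcripts also occur in ACOT2, so the split of reads between them is uncertain.

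The rest of the pathway was read from 6 wider lists with 113 genes, of which 105 were tested. In hypoxia with DMSO, 22 rose and 45 fell, with a median log2 fold change of -0.10 against 0.00 over all tested genes. With SLC-0111 in hypoxia against normoxia, 23 rose and 35 fell. SLC-0111 raised 19 and lowered 13 in normoxia and raised 14 and lowered 10 in hypoxia, with medians of 0.05 and 0.09. The percentages of all tested genes called are those given above for each comparison. Of the 14 tested regulators 6 rose and 5 fell in hypoxia with DMSO. PPARGC1B, a coactivator of mitochondrial genes, fell by 1.76 ± 0.11 on the log2 scale (adjusted p = 3.24e-12), from 12.6 ± 1.21 to 3.55 ± 0.701 CPM. PRKAA2, a catalytic subunit of the energy sensor AMPK, rose by 1.05 ± 0.09 (adjusted p = 2.71e-09), and PPARG by 1.02 ± 0.10 (adjusted p = 1.47e-08). CREB3L3, a liver transcription factor of the fasting response, rose by 0.81 ± 0.08 (adjusted p = 6.26e-09).

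PPARA, which encodes PPARα, was at 32.4 ± 0.691 CPM in normoxia DMSO and 45.9 ± 0.992 in normoxia SLC-0111, a rise of 0.50 ± 0.06 (adjusted p = 4.94e-07). In hypoxia it was at 38.7 ± 1.68 CPM with DMSO and 45.1 ± 3.99 with SLC-0111, a rise of 0.22 ± 0.06 (adjusted p = 0.0107).

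**Figure D4:**
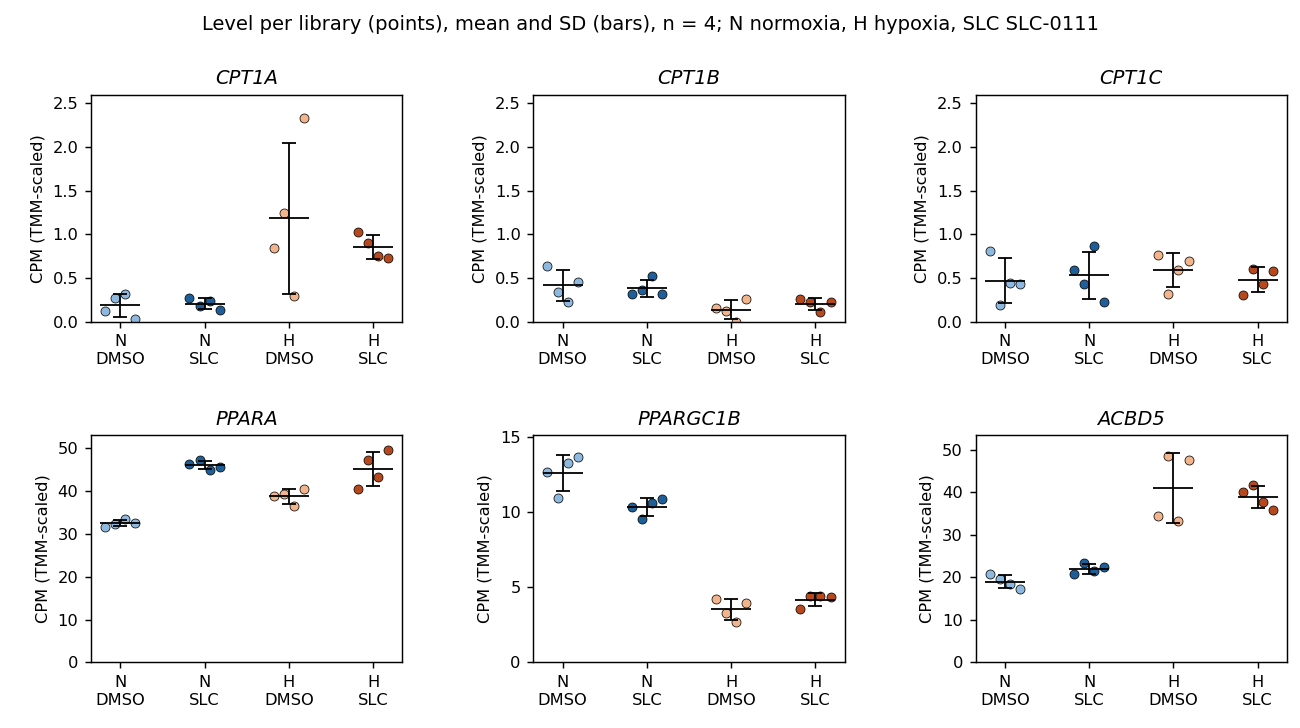
TMM-scaled CPM of CPT1A and 5 further genes of the pathway in every library (points) with the mean and SD of each group (bars, n = 4); the vertical axes start at 0 and the CPT1 panels share a scale. CPT1A is spread widely in hypoxia DMSO, PPARA is higher with SLC-0111, PPARGC1B is lower in hypoxia, and ACBD5 is higher in hypoxia.

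Of the 24 other oxidation genes tested, 5 rose (20.8%) and 13 fell (54.2%) in hypoxia with DMSO (median -0.22). Of all tested genes 25.0% rose and 24.8% fell there. The falls included GCDH (-0.65, adjusted p = 9.37e-08), of lysine breakdown, and HIBCH (-0.62, adjusted p = 4.11e-08), of valine breakdown. The rises included ACOT13 (1.03, adjusted p = 1.43e-10) and ACOT11 (0.74, adjusted p = 1.17e-07), both thioesterases. Of the 24 other peroxisomal genes tested, 1 rose (4.17%) and 11 fell (45.8%) in hypoxia with DMSO (median -0.12), against the same shares of all tested genes. The rise was ACBD5 (2.22-fold, adjusted p = 1.96e-09), a tether of peroxisomes to the endoplasmic reticulum, and the falls included AMACR (-0.89, adjusted p = 7.62e-08), a racemase for branched chains, and PHYH (-0.74, adjusted p = 1.12e-06), of phytanic acid breakdown. Of the 15 peroxins, the proteins that build peroxisomes, 4 rose (26.7%) and 5 fell (33.3%) in hypoxia with DMSO, against 25.0% and 24.8% of all tested genes. The share that rose is near that of all genes. Among the rises was PEX3 (0.65, adjusted p = 9e-08). PEX3 fell with SLC-0111 in hypoxia (-0.33, adjusted p = 0.00238). Of the 20 activation and transport genes tested, 4 rose (20%) and 7 fell (35%) in hypoxia with DMSO, against 25.0% and 24.8% of all tested genes. With SLC-0111 in hypoxia 4 rose (20%) and 3 fell (15%), against 9.14% and 7.11%. SLC27A2, a very-long-chain acyl-CoA synthetase, fell in hypoxia with DMSO by 0.83 ± 0.05 (adjusted p = 2.86e-12, edgeR's quasi-likelihood test). SLC27A2 rose with SLC-0111 in hypoxia by 0.41 ± 0.05 (adjusted p = 5.62e-06). ACSL5, a long-chain acyl-CoA synthetase, rose with SLC-0111 in hypoxia by 0.59 ± 0.06 (adjusted p = 5.81e-07). CD36, a fatty acid uptake receptor, fell with SLC-0111 by 0.49 ± 0.16 in normoxia (adjusted p = 0.0324) and by 0.54 ± 0.16 in hypoxia (adjusted p = 0.0218).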

How the data were processed

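The 16 libraries are of total RNA of HUH6 cells, with 4 per group. The authors deposited 1 table of raw counts per gene for 58735 genes (GENCODE 29 identifiers). Per the submitters' processing notes, HISAT2, HTSeq, MultiQC 1.10.1, edgeR 3.4.0 and the build GRCh38 were used; the versions of the aligner and counter and the strand setting are not given in the sources used here. The number in the name of 2 columns conflicts with the labels, so these libraries were placed by group with no number. No 2 libraries agreed within sampling noise (chi-square per degree of freedom 2.27 or more).

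From these counts, 18385 genes passed edgeR's filterByExpr and were fitted together over all 4 groups (edgeR 4.0.16, R 4.3.3, limma 3.58.1) with TMM scaling and the robust quasi-likelihood test on 12 residual degrees of freedom. The adjusted p is Benjamini-Hochberg over all tested genes, and a call needs an adjusted p under 0.05. Each SE was taken as |log2 fold change|/√F. CPM are TMM-scaled, and RPKM are CPM per 1000 bases of union exon length. Intervals and the limit of 3 counts for a count of 0 cover counting error only.

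All 29 members are named; every library is given for up to 3 called members in each direction and contrast with the largest change and for CPT1A, ACADVL, HADHA, ACAA2 and BDH1. Up to 4 called genes of each wider list and contrast, with a mean of at least 1 CPM, could be named; some of these are not reported here. The members and lists were chosen with earlier results of these data known. Alternatives were another scaling, filter or tool (DESeq2 1.42.0, limma-voom), a replicate block, a covariate for the share of protein-coding counts, and leaving out libraries. Tables and figures used pandas 2.3.3, scipy 1.17.1 and matplotlib 3.10.9.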

Additional observations from a re-analysis of the deposited data

Results flagged for a closer look

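In 8 of the 112 groups of 4 libraries examined (28 members in 4 groups), 1 library stood far from the other 3, where chance gives about 1 in 20. Hypoxia DMSO replicate 3, the shallowest library, was high for PEX11A at 16.7 CPM (the others 14.0 to 14.1) and for HSD17B4 at 466.9 CPM (416.9 to 424.2). Hypoxia DMSO replicate 1 was low for ACADVL at 112.5 CPM (124.5 to 125.9). Hypoxia SLC-0111 replicate 1 was low for BDH1 at 3.46 CPM (3.85 to 3.91) and high for ACOX2 at 44.1 CPM (40.8 to 41.3). Hypoxia SLC-0111 replicate 4 was low for DECR1 at 14.5 CPM (15.7 to 15.9). Normoxia SLC-0111 replicate 3 was low for SLC25A20 at 14.9 CPM (17.5 to 17.7), and replicate 4 of that group, with the lowest protein-coding share, was low for HSD17B4 at 395.9 CPM (450.4 to 457.9).

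The effect of SLC-0111 differed between hypoxia and normoxia by the interaction test for PEX11A, by -0.64 on the log2 scale, and for ETFB, by -0.35. PEX11A was lowered by the compound in hypoxia, and ETFB was raised by it in normoxia.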

How the results depend on the processing

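Of the 55 calls of members over the 5 contrasts, 42 were kept under every alternative run (28 at most), 13 were lost under at least 1, and 0 changed sign. Of the 85 tests without a call, 23 passed under at least 1 alternative.

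With SLC-0111 in normoxia, the 1 member lowered became 2 with library size alone, 2 with the replicate block and 0 under a covariate for the share of protein-coding counts, and 0 to 2 when libraries were left out (2 without normoxia SLC-0111 replicate 1, and 0 without hypoxia DMSO replicate 3 together with normoxia SLC-0111 replicate 4). The 9 raised were 6 with library size alone and 7 to 11 with libraries left out. With SLC-0111 in hypoxia, the 10 raised became 6 with library size alone and 6 when only the groups compared were fitted, and were 6 to 11 with libraries left out (6 without hypoxia SLC-0111 replicate 3). The 1 lowered was 1 to 2 (2 without hypoxia DMSO replicates 1 and 3). The 7 lowered in hypoxia with SLC-0111 became 11 under a covariate for the share of protein-coding counts. For the difference of effects, the 0 higher became 1 with the replicate block, 0 to 1 with libraries left out (1 without hypoxia SLC-0111 replicate 4 and 1 without hypoxia DMSO replicates 1 and 3), and the 2 lower became 1 with no filter. The other counts stayed within 1.5 times their value. The cause of these changes was not tested. Library size alone moved the median log2 fold change of all genes to -0.05 in normoxia and -0.07 in hypoxia.

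The fits that leave out 2 libraries together, and the fit of only the 14 numbered libraries, were chosen after seeing the data. Of 18 same-numbered pairs, the correlations of deviations ran from -0.03 to 0.35 and 8 were over 0.1. Those of replicate 4 were at 0.28, 0.24 and 0.35. Correlations of pairs with different numbers were not computed, so whether the replicate numbers pair the samples was not settled. Over all tested genes, the block moved the calls for the difference of effects to 1092 higher and 789 lower. Without the block, the same libraries gave 294 higher and 330 lower. The replicate block, fitted to the 14 numbered libraries, lost the calls of ACAA1 and BDH1 in hypoxia with DMSO; that of BDH1 was also lost in these libraries with no block. The block gained 6 calls, for ECHS1 and ETFA in hypoxia with DMSO, ECHS1 with SLC-0111 in normoxia, ACADS with SLC-0111 in hypoxia, and the difference of effects of ECI2 and ACAA1. Within hypoxia, CPT1A with SLC-0111 against DMSO was at -0.02 (adjusted p = 0.984) with the block and at -1.04 (adjusted p = 0.036) without hypoxia DMSO replicates 1 and 3. ACADVL with SLC-0111 in normoxia was lost with library size alone (adjusted p = 0.0841). The 3 counts that stand for a count of 0 were 0.0624 to 0.893 CPM across libraries, which limits CPT1A and ACADL most.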

Other observations

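For 6 pairs of a member and a contrast the groups did not overlap although edgeR's quasi-likelihood test made no call. ETFA and ETFDH were lower in all hypoxic libraries with DMSO, ETFDH and BDH1 in all hypoxic libraries with SLC-0111, ACOX3 was higher in all SLC-0111 libraries in normoxia, and ACOT1 was higher in all hypoxic libraries with DMSO. In 10 further pairs a call was made although libraries of the groups overlapped, among them CPT1A, ECI1 and BDH1 in hypoxia with DMSO.

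Of the 20 tested activation and transport genes, 3 were called for a difference of the SLC-0111 effect between the oxygen conditions by edgeR's quasi-likelihood test, each with the higher effect in hypoxia, against 2.87% of all tested genes in that direction. ACSS1, a mitochondrial acetyl-CoA synthetase, had a difference of 0.59 on the log2 scale (adjusted p = 0.0198) and ACSL5 one of 0.48 (adjusted p = 0.00235). ACSL1, a long-chain acyl-CoA synthetase, fell with SLC-0111 in normoxia by 0.32 on the log2 scale (adjusted p = 1.35e-05), and its effect was higher in hypoxia than in normoxia by 0.40 (adjusted p = 0.000625). AMACR fell with SLC-0111 in normoxia by 0.81 (adjusted p = 7.83e-07), and its difference between conditions was 0.61 (adjusted p = 0.0102). PPARA had a smaller rise with SLC-0111 in hypoxia, with a difference of -0.29 (adjusted p = 0.032). SLC16A1, a carrier of lactate and ketone bodies, fell with SLC-0111 by 0.45 in normoxia (adjusted p = 1.49e-06) and by 0.16 in hypoxia (adjusted p = 0.0465).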
